A study of Mus musculus with 20 samples.

Results

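The genes described are 5 complement genes of the mouse brain, C1qa, C1qb, C1qc, C3 and C4b, and the values are the DNA methylation of the CpGs in them. Members were chosen by name out of 49943 annotated genes of chromosomes 1 to 19, X and Y. A CpG was counted for a gene when it lay in the annotated gene or within 1 kb of either end (mm10 build). The assay was reduced representation bisulfite sequencing (RRBS), where bisulfite-treated CpG-rich restriction fragments are sequenced, and each value is the percent of reads methylated at a position in 1 library. In all 73 positions belonged to the 5 genes, 63 of 1151198 CpGs listed at 13 months and 73 of 1234455 at 3 months, with 63 listed at both ages. The strands of a CpG were listed as separate positions, so a count of CpGs here is a count of positions. The read depth behind a percentage is unknown, so no interval for counting error is given.

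DNA came from brain homogenate that had gone through a selection for microglia, which enriches these cells without making them pure. HEM mice overexpressed the full-length wild-type form of human α-synuclein, which accumulates in Lewy bodies, from an X-chromosomal transgene under the murine Thy-1 promoter, a promoter best known for driving transgenes in neurons. WT mice were the controls, and both genotypes are given the B6D2F1/J hybrid background, although the label of 1 HEM library at 13 months lacks the strain entry. At 13 months 8 libraries were HEM and 4 were WT, and at 3 months each genotype had 4. The submitters' design text has 3 young WT mice, whereas 4 libraries carry that label and entered the comparisons. The labels give neither the sex of the mice nor a batch, and p-values measure the spread between these libraries. The files of each age carried their own CpG list, so age and separate processing of the ages cannot be told apart. No transcript levels were analysed here.

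The complement system is a cascade of plasma proteins that tags targets for removal by phagocytes. C1qa, C1qb and C1qc encode the A, B and C chains of C1q, which recognises the target and starts the classical pathway, and in the brain microglia are its main source. C4b encodes C4, which is cleaved after C1 is activated, and C3 is the central component on which all complement routes converge. C3 fragments are read by phagocyte receptors, and in the developing brain C1q, C4 and C3 take part in the removal of synapses by microglia.

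The 250 bases before the annotated transcript start are shown for the members found in the RefSeq promoter table (GRCm38.p6, the assembly of mm10), because none of the CpGs in them was listed at either age. The table held 3 of the 5 members, C1qb, C1qc and C3, all on the minus strand. Capitals mark each CG.
C1qb chr4:136886201-136886450 (minus strand): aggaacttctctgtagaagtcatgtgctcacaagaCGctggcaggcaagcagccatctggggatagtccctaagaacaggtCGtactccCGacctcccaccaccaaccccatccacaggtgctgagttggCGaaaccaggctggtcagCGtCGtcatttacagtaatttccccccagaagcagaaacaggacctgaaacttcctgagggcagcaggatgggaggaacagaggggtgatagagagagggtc
C1qc chr4:136892915-136893164 (minus strand): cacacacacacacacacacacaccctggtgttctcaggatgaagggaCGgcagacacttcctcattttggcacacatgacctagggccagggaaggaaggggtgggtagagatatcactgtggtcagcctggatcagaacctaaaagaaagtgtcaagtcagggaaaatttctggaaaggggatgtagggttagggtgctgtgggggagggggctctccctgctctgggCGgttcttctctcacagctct
C3 chr17:57228137-57228386 (minus strand): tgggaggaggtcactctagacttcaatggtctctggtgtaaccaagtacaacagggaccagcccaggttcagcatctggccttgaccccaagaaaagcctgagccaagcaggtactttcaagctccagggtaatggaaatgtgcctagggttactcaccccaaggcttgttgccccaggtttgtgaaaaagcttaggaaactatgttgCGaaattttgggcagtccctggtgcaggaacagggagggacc
The C1qb window holds 6 CGs, the C1qc window 2 and the C3 window 1, against a median of 6 over 32817 promoter windows of the same length. None of the 3 contains the letters CCGG, which read the same on both strands and are the site of MspI, the usual enzyme of this assay; the enzyme used is not given in the sources used here. CCGG is present in 47.0% of all windows. A CpG listed at 3 months falls in 34.5% of all windows, and in 0.443% of those without CCGG.

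In C1qb, C1qc and C3 the measured positions lie outside these windows. The C1q genes sit side by side within 18.72 kb of chromosome 4. C1qa (136895916 to 136898844) had 18 listed CpGs at both ages, all inside the gene. C1qc (136889801 to 136892936) had 19 at 13 months and 23 at 3 months, also all inside, and the nearest to the transcript start lay 1343 bp downstream of it. C1qb (136880126 to 136886200) was unmeasured at 13 months, and its 3 CpGs at 3 months lay 308 to 396 bp upstream of the annotated start. On chromosome 17, C3 (57203967 to 57228136) had 15 CpGs at both ages, 10 inside the gene and 5 past its 3′ end, in a region that also holds Mir6978. C4b (34728139 to 34743902) had 11 at 13 months and 14 at 3 months, all but 1 inside the gene and the last 2 on either side of its higher end (146 bp inside and 44 bp past it), and its flank overlaps the pseudogene Stk19-ps1. C4b has a close copy, C4a, near it on the chromosome, so the placement of reads between them is uncertain. The gene table used has no exons, and positions are not assigned to exons or introns.

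The levels differed between and within the genes. Listed CpGs no more than 500 bp apart are called a stretch here, a grouping made after their positions were seen. C1qa had a stretch of 13 CpGs with low methylation and, farther along the chromosome, a stretch of 5 with intermediate to high methylation. The low stretch averaged 11.7% ± 3.397 in HEM (SD, n = 8) and 13.4% ± 2.91 in WT (SD, n = 4) at 13 months, and 14.6% ± 2.52 in HEM and 14.4% ± 3.69 in WT at 3 months (SD, n = 4 each). The other stretch averaged 57.6% ± 15.7 in HEM and 62.9% ± 18.9 in WT at 13 months (SD, n = 8 and 4), and 75.4% ± 9.14 in HEM and 65.9% ± 13.8 in WT at 3 months (SD, n = 4 each). Of the 18 CpGs of C1qa, 11 averaged below 20% over all libraries at 13 months and 10 at 3 months, and none reached 80%.

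Every CpG of C1qc and C1qb was intermediate. CpG means of C1qc over all libraries ran from 27.7% to 68.3% at 13 months and from 25.1% to 77.1% at 3 months, and those of C1qb from 48.6% to 52.3% at 3 months. These positions also spread widely from library to library: the median range of a C1qc CpG was 49.0 points at 13 months and 29.3 points at 3 months. The widest, at 136890404 in C1qc, ran from 9.52% to 76.9% over HEM libraries and from 34.9% to 82.1% over WT libraries at 13 months. Where both strands of a C1qc CpG were listed (5 pairs at 13 months), the strands differed by 12.2 points on average within a library, against 10.5 points over all 15093 pairs with a mean of 20% to 80%.

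**Figure D1:**
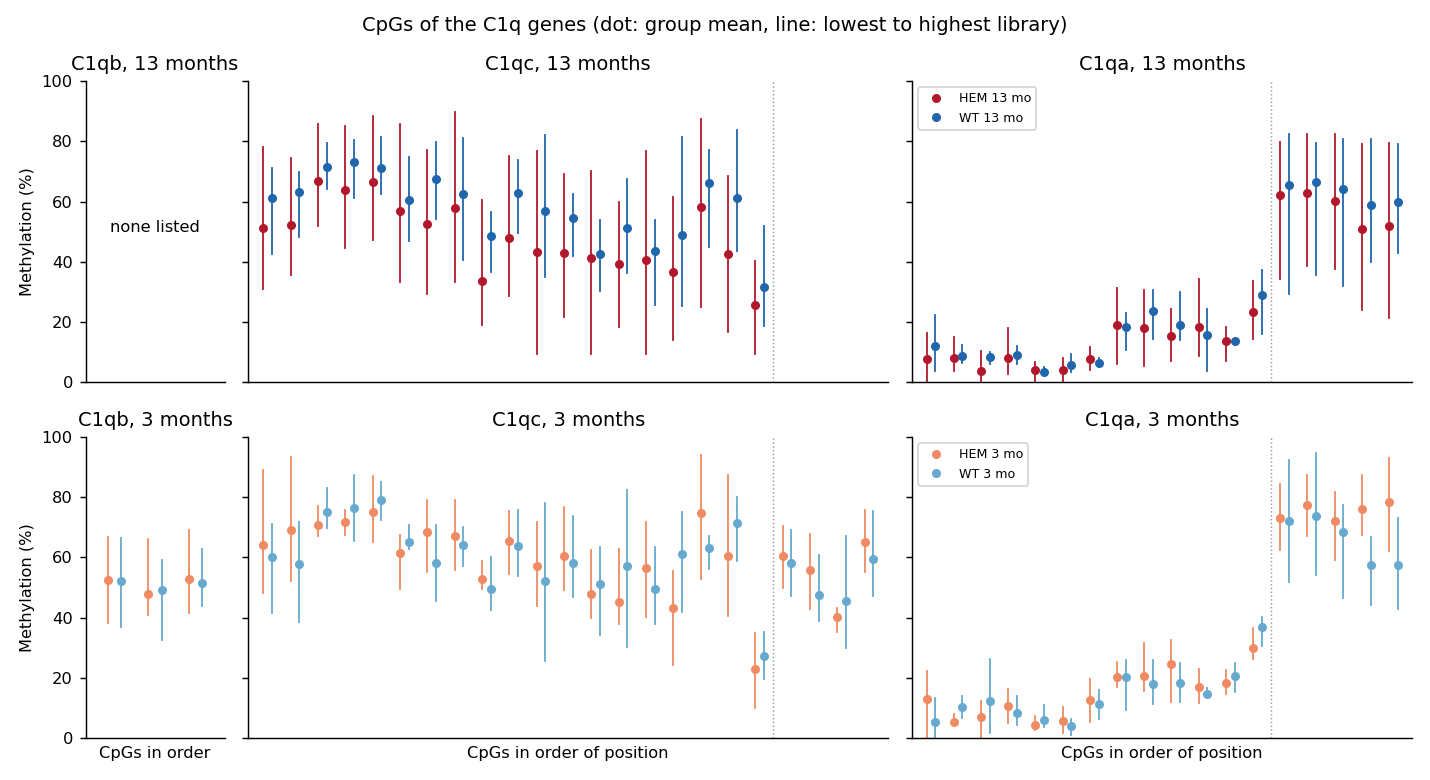
Percent methylation of each listed CpG of C1qb, C1qc and C1qa (y axis, %), in order of position along the chromosome (x axis), at 13 months (top) and 3 months (bottom). Dots are group means, lines run from the lowest to the highest library, and dotted lines part stretches; HEM and WT lines overlap at nearly every CpG, and the 13 low CpGs of C1qa stand beside 5 that average 57.6% in HEM and 62.9% in WT at 13 months.

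C4b and C3 were mostly methylated, with a few lower positions. In C4b 7 of 11 CpGs at 13 months and 8 of 14 at 3 months averaged 80% or more. The lowest position, 34743946, lay 44 bp past the higher end of the gene and averaged 36.5% ± 5.75 in HEM (SD, n = 8) and 35.3% ± 14.7 in WT (SD, n = 4) at 13 months, and 34.8% ± 6.64 in HEM and 42.7% ± 3.38 in WT at 3 months (SD, n = 4 each). A position inside C4b, 34735476, averaged 50.1% ± 7.26 in HEM and 53.4% ± 5.53 in WT among older mice (SD, n = 8 and 4), with 48.6% ± 4.12 in HEM and 53.1% ± 5.43 in WT at 3 months (SD, n = 4 each), between neighbours that averaged over 70%.

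C3 had 4 stretches. The 5 CpGs past its 3′ end averaged 86.1% ± 2.94 in HEM and 88.2% ± 2.31 in WT at 13 months (SD, n = 8 and 4), and 83.8% ± 2.13 in HEM and 81.9% ± 3.73 in WT at 3 months (SD, n = 4 each). The stretch nearest to the middle of the gene (4 CpGs, 57213854 to 57213939) was lower, with means of 57.4% ± 10.5 in HEM and 57.9% ± 7.97 in WT among older mice, then 52.2% ± 5.89 in HEM and 45.8% ± 9.38 in WT at 3 months. Within that stretch single libraries differed by more than the groups, from 47.3% to 74.2% in HEM at 13 months and from 35.8% to 58.3% in WT at 3 months.

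**Figure D2:**
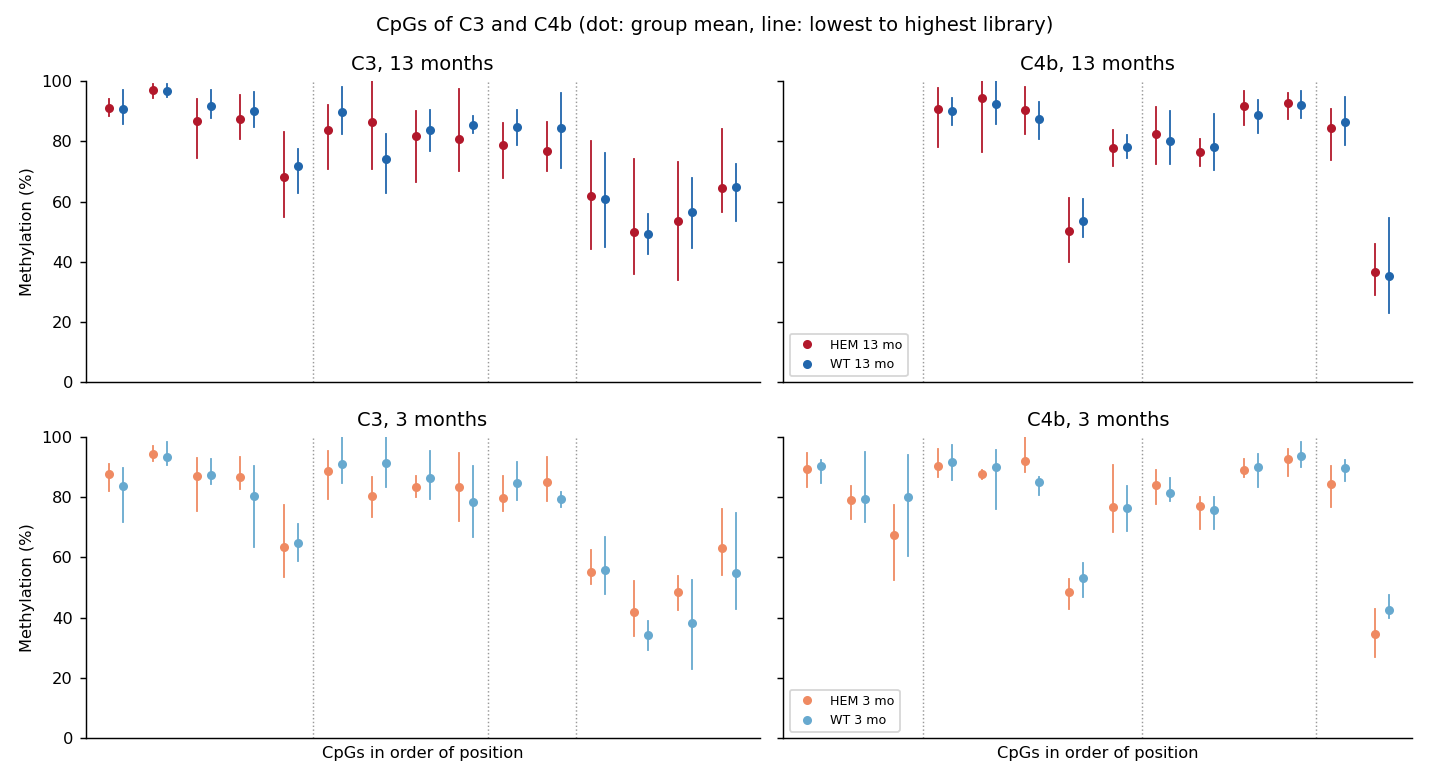
Percent methylation of each listed CpG of C3 and C4b (y axis, %), in order of position along the chromosome (x axis), at 13 months (top) and 3 months (bottom), drawn with group means as dots and the lowest to the highest library as lines. In C3 9 of 15 positions and in C4b 7 of 11 average 80% or more at 13 months; the lowest are the 4 CpGs of the C3 stretch near the middle of the gene and 2 CpGs of C4b.

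The gene means per library show how far the members spread. C1qc had the widest spread at 13 months. It ran in HEM from 30.0% over a median of 48.5% to 69.4%, and was 70.03%, 56.9%, 43.3% and 61.2% in the 4 WT libraries. Low and high libraries occurred in both genotypes, and the 2 lowest of C1qc, 30.0% and 30.6%, were HEM. At 3 months C1qc was at 64.2%, 68.2%, 53.2% and 50.3% in HEM and ran from 52.0% to 65.8% in WT. C1qa ran in HEM from 13.1% over a median of 23.9% to 32.7% at 13 months and was 33.6%, 29.6%, 16.6% and 28.7% in WT. At 3 months it was 36.1%, 33.4%, 27.8% and 28.6% in HEM and 32.9%, 33.0%, 28.9% and 20.04% in WT. The C1qa values of the genotypes overlapped at both ages. C1qb, measured at 3 months, was at 67.4%, 50.2%, 46.5% and 40.3% across the HEM libraries, against 59.9%, 60.7%, 45.3% and 38.1% in WT, again overlapping.

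C4b and C3 kept closer together. C4b ran in HEM from 72.6% over a median of 79.3% to 80.8% at 13 months and was 79.7%, 78.3%, 79.0% and 76.6% in WT. At 3 months it was 79.1%, 77.4%, 78.7% and 77.1% in HEM and 79.1%, 78.7%, 81.6% and 80.3% in WT. A single HEM library, replicate 8 at 13 months, lay below all the rest for C4b. C3 ran in HEM from 71.0% over a median of 75.7% to 85.1% at 13 months and was 79.4%, 76.1%, 79.7% and 78.1% in WT. At 3 months it was 75.1%, 76.5%, 76.2% and 73.1% in HEM and 70.9%, 70.3%, 79.5% and 73.7% in WT.

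Set beside all gene regions with at least 3 listed CpGs, the C1q genes stood high in their spread. The SD of C1qc over the 12 libraries of 13 months was 14.2 points, above that of 99.8% of 25830 regions, whose median SD was 1.28 points. It also exceeded that of 99.7% of the 1021 regions of like level and CpG number. The SD of C1qa was 6.71 points, above 94.4% of all regions and 95.8% of 1324 like ones. At 3 months the SD was 10.5 points for C1qb, 7.32 points for C1qc and 4.97 points for C1qa. C1qb rests on 3 CpGs, and its SD was above 89.3% of 496 like regions. The SD of C4b, 2.26 points at 13 months and 1.47 points at 3 months, was above 20.03% and 10.5% of like regions. The SD of C3, 4.03 points at 13 months and 3.06 points at 3 months, was above 73.1% and 64.1% of like regions.

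**Figure D3:**
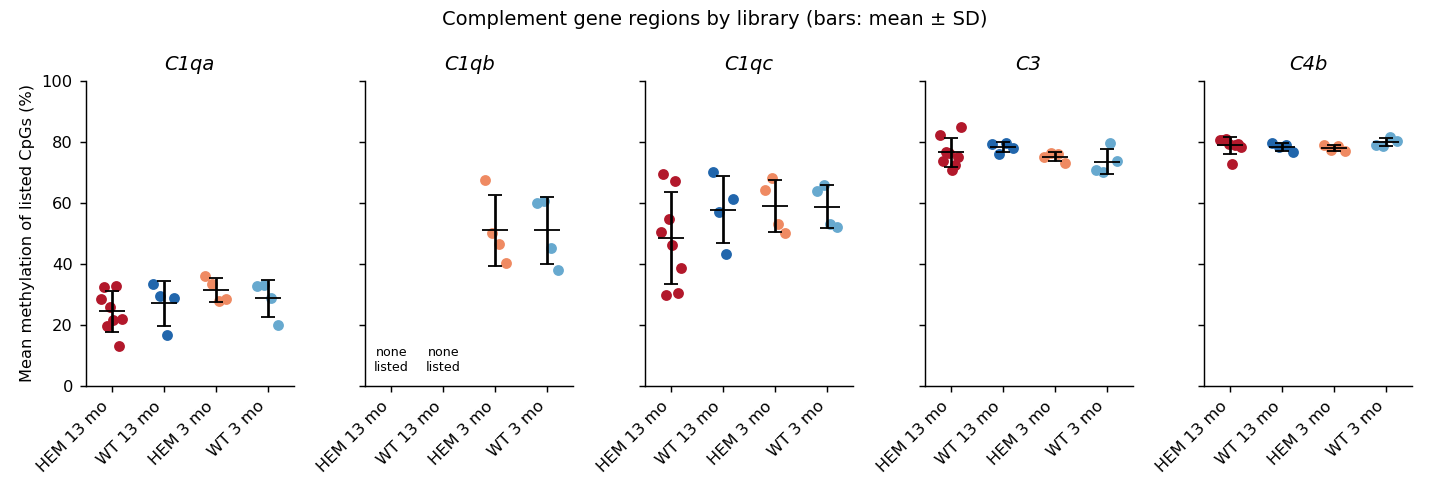
Mean methylation of the listed CpGs of each gene (y axis, %) in every library, by group (x axis); bars give the mean and SD of 8, 4, 4 and 4 libraries, and C1qb had no listed CpG at 13 months. C1qc ranges from 30.0% to 69.4% among the 8 HEM libraries of 13 months, where C4b ranges from 72.6% to 80.8%, and in no gene do the 2 genotypes separate at an age.

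The C1q genes varied together across libraries, and with the marker genes of microglia. These relations belong to a family of 43 computed over libraries of an age, with permutation p-values (two-sided, 100000 permutations for 12 libraries, exact for 8) adjusted over the family. Between C1qa and C1qc, Pearson's r was 0.921 at 13 months (permutation p = 7e-05, adjusted p = 0.001; Spearman's coefficient 0.930, permutation p = 4e-05, adjusted p = 0.000573; n = 12). It was 0.952 without the 2 libraries farthest from the median of C1qa, 0.925 with group means removed and 0.932 within the 8 HEM libraries. At 3 months r between C1qa and C1qc was 0.779 (exact permutation p = 0.0135, adjusted p = 0.0725; Spearman's coefficient 0.857, exact permutation p = 0.0107, adjusted p = 0.0768; n = 8), and 0.970 without the 2 farthest libraries. C1qb correlated with C1qa at r = 0.848 (exact permutation p = 0.00563, adjusted p = 0.0403; Spearman's coefficient 0.857, exact permutation p = 0.0107, adjusted p = 0.0768; n = 8; r = 0.802 without the 2 farthest). Its r with C1qc was 0.796 (exact permutation p = 0.0332, adjusted p = 0.110; Spearman's coefficient 0.786, exact permutation p = 0.0279, adjusted p = 0.120; n = 8; r = 0.773 without the 2 farthest).

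The microglia list held 12 genes, of which 8 had at least 3 CpGs at both ages, among them P2ry12, Cx3cr1, Tmem119, Csf1r, Sall1, Itgam and Trem2. Its mean methylation ran from 47.1% to 61.3% over the 20 libraries. Libraries with a low microglia list had low C1q genes. At 13 months r with the list was 0.968 for C1qa and 0.963 for C1qc (permutation p = 1e-05, the smallest the permutations can give, and adjusted p = 0.000215 for each; n = 12). Spearman's coefficient was 0.986 for C1qa (permutation p = 1e-05, adjusted p = 0.00043) and 0.958 for C1qc (permutation p = 3e-05, adjusted p = 0.000573). Both relations held without the 2 farthest libraries (r = 0.957 for C1qa and 0.942 for C1qc) and within HEM (0.970 and 0.956, n = 8). At 3 months r was 0.850 for C1qa, 0.902 for C1qb and 0.874 for C1qc (exact permutation p = 0.00474, 0.00384 and 0.0176, adjusted p = 0.0403, 0.0403 and 0.0774; n = 8). Spearman's coefficient was 0.952, 0.762 and 0.786 (exact permutation p = 0.00114, 0.0368 and 0.0279, adjusted p = 0.0123, 0.132 and 0.120; n = 8), and r without the 2 farthest libraries was 0.845, 0.888 and 0.954. At 3 months the Pearson relations of C1qc with C1qa, C1qb and the list thus missed an adjusted p of 0.05. Of the cell type lists only those of microglia and neurons were tested against the members. The relations are therefore not shown to be particular to microglia. The list of other leukocytes and border macrophages was lowest at 13 months in HEM replicate 11 (57.1%) and highest in WT replicate 1 (67.5%). C1qa was also lowest and highest at 13 months in these libraries (13.1% and 33.6%). In a mixed sample a different share of a cell type and a different methylation within it cannot be told apart.

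C3 and C4b showed no such relation that passed the test. Their r with the microglia list was -0.0564 and 0.201 at 13 months (permutation p = 0.862 and 0.571, adjusted p = 0.900 and 0.842; n = 12) and -0.145 and -0.0886 at 3 months (exact permutation p = 0.729 and 0.833, adjusted p = 0.896 and 0.900; n = 8). Spearman's coefficient ran from -0.0952 to 0.0140 in these 4 relations, with an adjusted permutation p of 1 apiece. Against the mean over all CpGs of a library at 13 months, r was 0.666 for C3 (permutation p = 0.0183, adjusted p = 0.0774; Spearman's coefficient 0.664, permutation p = 0.0225, adjusted p = 0.120; n = 12; r = 0.685 without the 2 farthest) and 0.800 for C4b (permutation p = 0.00736, adjusted p = 0.0452; Spearman's coefficient 0.413, permutation p = 0.185, adjusted p = 0.441; n = 12). The C4b relation rests on the 2 libraries farthest from the median, without which r was 0.282. Against the neuron list at 13 months, r was 0.628 for C4b (permutation p = 0.0198, adjusted p = 0.0774, n = 12) and 0.504 without the 2 farthest. Spearman's coefficient for C4b was 0.497 there (permutation p = 0.105, adjusted p = 0.323). With the neuron list, C1qc had r = -0.655 at 13 months (permutation p = 0.0223, adjusted p = 0.0799, n = 12) and -0.831 without the 2 farthest. Spearman's coefficient for C1qc was -0.685 (permutation p = 0.0165, adjusted p = 0.101). C1qa had r = -0.554 at that age (permutation p = 0.0625, adjusted p = 0.179, n = 12) and -0.737 without the 2 farthest. Its Spearman's coefficient was -0.622 (permutation p = 0.0342, adjusted p = 0.132). At 3 months r with the neuron list was -0.368 for C1qa, -0.223 for C1qb and -0.474 for C1qc (adjusted exact permutation p from 0.546 to 0.842, n = 8).

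**Figure D4:**
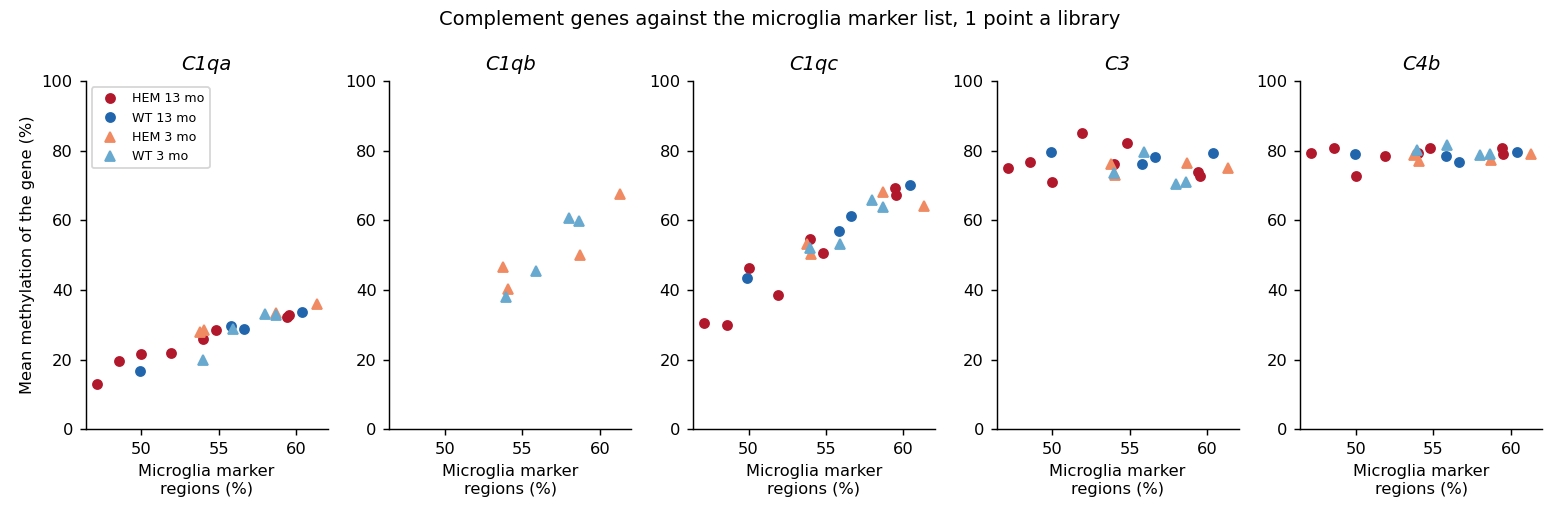
Mean methylation of each complement gene (y axis, %) against the mean methylation of 8 microglia marker regions (x axis, %), with 1 point a library, circles for 13 months and triangles for 3 months. Points of C1qa, C1qb and C1qc climb with the marker list (r = 0.968 and 0.963 for C1qa and C1qc at 13 months), and points of C3 and C4b stay level.

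The gene regions most like a member over all 20 libraries were ranked by Pearson's r of their mean methylation among 25722 regions, as a description. For C1qc the highest was Tmem119, a microglial membrane protein gene that is also in the microglia list (r = 0.957), followed by the keratin gene Krt8 (0.952) and the noncoding 6330537M06Rik (0.951). For C1qa they were Sft2d1 (0.960), the pseudogene Hmgb1-ps5 (0.959), which lies within the cathepsin S gene Ctss, and Vps9d1 (0.954). For C3 they were Sult4a1 (0.844), Gm12963 (0.840) and E130006D01Rik (0.830), and for C4b they were Gm52734 (0.856), Pag1 (0.853) and 1700057G04Rik (0.849). The points share their library, and the 2 ages differ in processing. C1qc stood at rank 116 for C1qa (r = 0.892), while C3 and C4b stood at ranks 15675 and 9171.

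The comparison of HEM with WT at 13 months asked whether α-synuclein overexpression went with a different methylation of these genes. No member separated the genotypes. C1qc averaged 48.4% ± 15.1 in HEM and 57.9% ± 11.1 in WT (SD, n = 8 and 4), a difference of -9.42 ± 7.72 points (SE; two-sided exact permutation p = 0.293). C1qa averaged 24.5% ± 6.70 in HEM and 27.1% ± 7.34 in WT, a difference of -2.68 ± 4.37 points (exact permutation p = 0.541). The microglia list, which moved with both genes, was at 53.2% ± 4.66 in HEM and 55.7% ± 4.33 in WT, and its part in these differences was not tested. C4b averaged 78.9% ± 2.69 in HEM and 78.4% ± 1.31 in WT (0.49 ± 1.15 points, exact permutation p = 0.798). C3 averaged 76.6% ± 4.82 in HEM and 78.3% ± 1.65 in WT (-1.68 ± 1.89 points, exact permutation p = 0.529). The smallest p this design can give is 0.00202. These tests do not show that the groups are alike, since differences of several points lie within the errors.

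Across all features, limma called no member region at 13 months, where a call needed an adjusted p under 0.05 and at least 5 points, and none of the 4 had an unadjusted p under 0.05; 0% of 19451 gene regions were called. Limma called none of the 60 tested member CpGs (of 63 listed) at an adjusted p under 0.05 and at least 10 points, against 0.000881% of all CpGs, and 1 member CpG had an unadjusted p under 0.05, where 5.82% of all CpGs did. In 46 of the 63 the mean was lower in HEM, including all 19 CpGs of C1qc, whose differences ran from -18.6 to -1.33 points. Neighbouring positions share fragments and libraries, and some are strands of the same CpG, so these are not separate measurements. Over all CpGs tested 49.1% were higher in HEM. The largest C1qc difference, at 136890467, was 42.6% ± 16.8 in HEM and 61.3% ± 20.8 in WT (exact permutation p = 0.129, n = 8 and 4; limma adjusted p = 0.870). In C3 the CpG at 57205707 ran the other way, at 86.5% ± 11.6 in HEM and 74.0% ± 8.67 in WT (exact permutation p = 0.0970, n = 8 and 4; limma adjusted p = 0.863). No member CpG had HEM and WT libraries without overlap, against 0.445% of all CpGs tested.

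At 3 months the same comparison again separated no gene. C1qa averaged 31.5% ± 3.92 in HEM and 28.7% ± 6.09 in WT, a difference of 2.78 ± 3.62 points (SD, n = 4 each; SE of the difference; exact permutation p = 0.514). C1qb averaged 51.1% ± 11.6 in HEM and 51.0% ± 11.1 in WT (0.10 ± 8.04 points, exact permutation p = 1). C1qc averaged 59.0% ± 8.62 in HEM and 58.8% ± 7.11 in WT (0.22 ± 5.59 points, exact permutation p = 0.943). The C1q differences of this age were thus smaller than their errors. C4b averaged 78.1% ± 1.01 in HEM and 79.9% ± 1.31 in WT (-1.86 ± 0.827 points, exact permutation p = 0.114), and C3 averaged 75.2% ± 1.52 in HEM and 73.6% ± 4.22 in WT (1.62 ± 2.24 points, exact permutation p = 0.514). The smallest p possible with 4 against 4 is 0.0286. The microglia list averaged 57.0% ± 3.68 in HEM and 56.6% ± 2.14 in WT (SD).

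Limma called none of the 5 member regions at 3 months, with none at an unadjusted p under 0.05 and 0% of 20189 regions called. It called none of the 72 tested member CpGs, with 0% of 492283 CpGs called, and 2 had an unadjusted p under 0.05, where 4.53% of all CpGs did. The 2 CpGs of C1qa with the largest differences were neighbours in its intermediate to high stretch. At 136897642 the level was 76.8%, 87.2%, 67.6% and 73.1% in HEM and 66.9%, 66.2%, 52.8% and 44.1% in WT. Every HEM library of C1qa lay above every WT library there (18.7 points, exact permutation p = 0.0286, n = 4 each, the smallest possible; limma adjusted p = 0.985). At 136897660 it averaged 78.4% ± 12.7 in HEM and 57.4% ± 13.1 in WT, with overlap (21.0 points, exact permutation p = 0.0571, n = 4 each; limma adjusted p = 0.985). At 13 months the same C1qa positions differed by -7.93 and -7.76 points. The CpG of C4b at 34735372, named after its values were seen, also had no overlap, at 92.2% ± 5.51 in HEM and 85.1% ± 2.96 in WT. These are 2 of 73 member CpGs, and 2.7% of all CpGs tested had no overlap between the genotypes.

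The comparison of ages within HEM used the 63 CpGs listed at both. C1qa and C1qc were lower on average at 13 months, within the spread between libraries, and C1qb had no CpG listed at both ages. C1qa averaged 24.5% ± 6.70 at 13 months and 31.5% ± 3.92 at 3 months (SD, n = 8 and 4), a difference of -7.02 ± 3.08 points (exact permutation p = 0.0828; limma adjusted p = 0.420). C1qc averaged 48.4% ± 15.1 at 13 months and 59.7% ± 8.94 at 3 months, a difference of -11.3 ± 6.97 points (exact permutation p = 0.204; limma adjusted p = 0.523). The microglia list averaged 53.2% ± 4.66 at 13 months and 57.0% ± 3.68 at 3 months, and its part in the C1q differences was not tested. C4b differed by 0.94 ± 1.05 points (exact permutation p = 0.572) and C3 by 1.40 ± 1.87 points (exact permutation p = 0.624). Limma called none of the 4 regions, with none at an unadjusted p under 0.05 and 0% of 19319 regions called. Of 59 tested member CpGs limma called none, against 0.0305% called of all CpGs, and 4 had an unadjusted p under 0.05, where 10.4% of all CpGs did. The means of 43 of the 63 were lower at 13 months, 16 of 18 in C1qa and 18 of 19 in C1qc, while 56.7% of all CpGs tested were higher. The largest differences were again at the neighbouring C1qa positions 136897642 and 136897660, of -25.3 and -26.3 points (exact permutation p = 0.0343 and 0.0364, n = 8 and 4; limma adjusted p = 0.395 and 0.389).

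In WT the differences of C1qa and C1qc between the ages were smaller than their errors, and C3 had the largest difference. C1qa averaged 27.1% ± 7.34 at 13 months and 28.7% ± 6.09 at 3 months (SD, n = 4 each). The difference was -1.57 ± 4.77 points (SE, exact permutation p = 0.714). C1qc averaged 57.9% ± 11.1 at 13 months and 60.01% ± 6.69 at 3 months, a difference of -2.15 ± 6.49 points (exact permutation p = 0.743). With such errors these values do not show that C1qa and C1qc stayed the same in WT. C4b averaged 78.4% ± 1.31 at 13 months and 79.0% ± 1.48 at 3 months (exact permutation p = 0.571). C3 averaged 78.3% ± 1.65 at 13 months and 73.6% ± 4.22 at 3 months, a difference of 4.69 ± 2.27 points (exact permutation p = 0.114; limma adjusted p = 0.951). Without WT replicate 4 of 3 months, the highest for C3 at that age, that difference was 6.67 points (exact permutation p = 0.0286, limma adjusted p = 0.865). That exact p is the smallest possible with 1 library left out, and this library was picked after its value was seen. Over all libraries left out in turn the difference ran from 3.59 to 6.67 points (exact permutation p from 0.0286 to 0.229). No member region was called by limma, none had an unadjusted p under 0.05, and 0.00518% of all regions were called. No member CpG of 60 tested was called by limma, and 0.0183% of all CpGs were called. An unadjusted p under 0.05 was found for 1 member CpG and for 4.79% of all CpGs.

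Of the 63 member CpGs, 3 had WT libraries of the ages without overlap, against 2.86% of all CpGs tested. In C3 the CpG at 57205707 averaged 74.0% ± 8.67 at 13 months and 91.3% ± 6.92 at 3 months (exact permutation p = 0.0286, n = 4 each; limma adjusted p = 0.975). The others, named after their values were seen, were 57213907 in C3, at 49.2% ± 7.34 at 13 months and 34.1% ± 3.96 at 3 months, and 136896702 in C1qa, at 13.6% ± 0.968 at 13 months and 20.6% ± 5.01 at 3 months. The 2 C3 positions thus differed in opposite directions.

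Whether the HEM minus WT difference changed with age was tested on its own, by permuting genotypes within each age. No gene passed. The change (difference at 13 months less that at 3 months) was -5.45 ± 5.67 points for C1qa, -9.14 ± 9.53 points for C1qc, -3.29 ± 2.94 points for C3 and 1.55 ± 1.44 points for C4b (SE), with exact permutation p-values from 0.327 to 0.378. Limma called no member region, with none at an unadjusted p under 0.05 and 0% of 19312 called, and no member CpG of 60, with 0.000224% of all CpGs called. An unadjusted p under 0.05 was found for 4 of these member CpGs and for 6.28% of all CpGs. The C3 CpG at 57205707 had the smallest p, a change of 23.3 points (exact permutation p = 0.00978; limma adjusted p = 0.771). Its HEM minus WT difference was 12.55 points at 13 months and -10.8 points at 3 months. The neighbouring position 57205708, the other strand of the same CpG in C3, gave a change of 1.03 points (exact permutation p = 0.867).

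**Figure D5:**
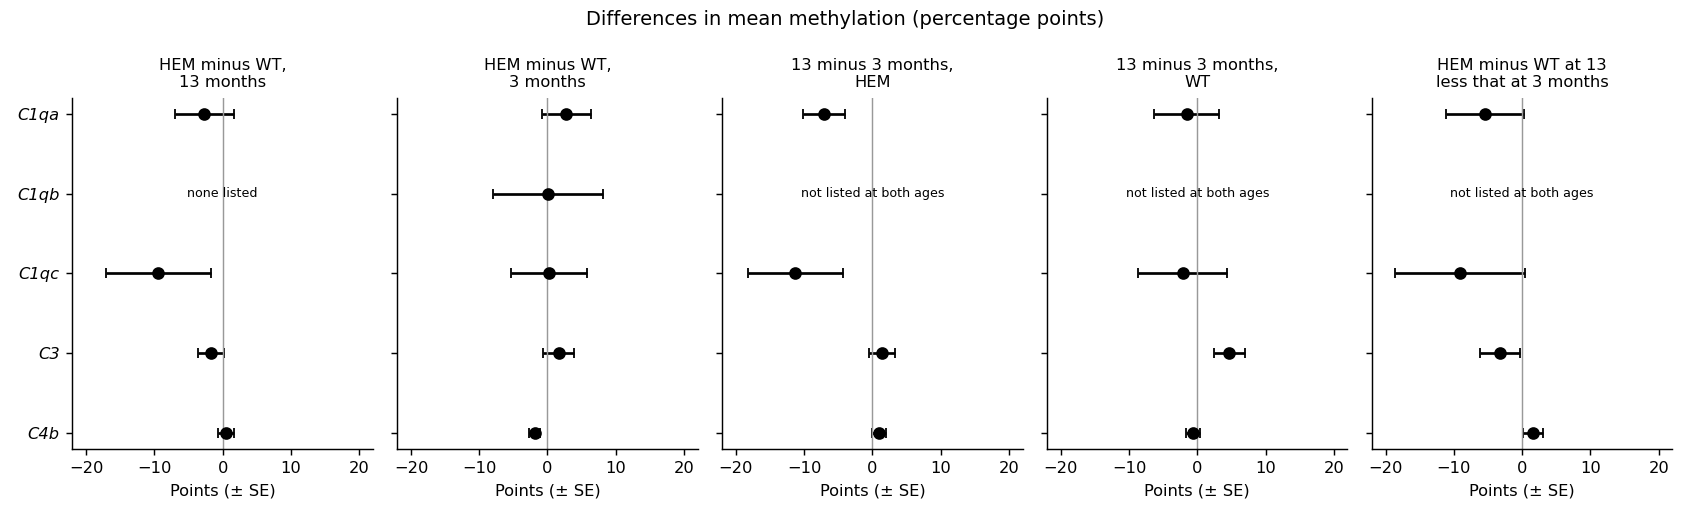
Differences in mean methylation of each complement gene (x axis, percentage points, with the standard error), for HEM minus WT at 13 and 3 months, 13 minus 3 months in HEM and WT, and the change of the HEM minus WT difference with age. The widest errors are those of C1qc and C1qb, the largest difference is that of C1qc between ages in HEM (-11.3 points), and no gene was called in any panel.

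No other gene of the pathway passed either. Of 48 other complement genes, 33 to 36 regions could be tested in a comparison, and limma called none of them higher or lower in any of the 5 comparisons; 3, 1, 5, 3 and 2 had an unadjusted p under 0.05 for HEM against WT at 13 and 3 months, the ages in HEM, the ages in WT and the change with age. The shares of all regions with such a p were 4.05%, 4.03%, 12.9%, 4.98% and 5.18% in the same order. Among initiators and proteases, C2, which forms the C3 convertase with C4, averaged 44.9% ± 2.96 in HEM and 50.1% ± 3.13 in WT at 13 months (-5.16 points, limma adjusted p = 0.99996). Colec11, a pattern recognition molecule of the lectin pathway, averaged 72.2% ± 2.53 in HEM and 78.0% ± 4.46 in WT at 3 months (-5.85 points, limma adjusted p = 0.9999). Their groups differed by more than those of the lectin pathway protease gene Masp1, at 1.53 points at 13 months.

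Among the terminal components, which form the membrane attack complex, C8a averaged 86.0% ± 2.51 in HEM and 91.6% ± 1.17 in WT at 13 months (-5.53 points over 4 CpGs, limma's test unadjusted p = 0.000505, adjusted p = 0.99996). The change with age was -5.90 points for C8a and -8.09 points for C2 (limma adjusted p = 0.903 for each). Among regulators, Serping1, which encodes the C1 inhibitor, averaged 20.1% ± 5.65 at 13 months and 9.60% ± 6.01 at 3 months in HEM (10.5 points, limma adjusted p = 0.286). Cfb, the alternative pathway protease gene, averaged 80.8% ± 1.97 at 13 months and 76.3% ± 2.16 at 3 months in HEM (4.59 points, limma adjusted p = 0.233). Among the receptor genes, Itgam, a chain of complement receptor 3, was at 79.1% ± 0.982 in young HEM mice and 80.9% ± 1.66 in young WT mice, and C5ar1, a C5a receptor, differed by -2.20 points between ages in HEM. Cd93, a phagocyte surface receptor gene named after its values were seen, averaged 23.8% ± 10.1 in HEM and 32.6% ± 11.1 in WT at 13 months (-8.76 points, limma adjusted p = 0.99996). C4a, the close copy of C4b, averaged 84.0% ± 2.06 in HEM and 83.3% ± 2.48 in WT among older mice, and its HEM mean was 84.5% ± 0.455 against 84.0% ± 1.91 in WT among young ones.

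Mean methylation over the CpG list of each age ran from 29.3% to 32.2% across libraries. HEM replicate 8 was the lowest of the libraries of 13 months. Beside the microglia list, list means ran from 16.7% to 19.6% for neurons, 32.5% to 36.9% for astrocytes, 27.0% to 30.1% for the oligodendrocyte lineage, 44.1% to 56.4% for vessels and 57.1% to 67.5% for other leukocytes and border macrophages. No list was at 0, and methylation levels alone do not show which cells a sample held, so the labelled enrichment could not be checked.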

How the data were processed

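Genomic DNA from microglia-enriched brain homogenate was profiled by reduced representation bisulfite sequencing in 20 libraries. Per the labels, the deposited values are percent methylation per position; Bowtie2 and methylKit with the mm10 build are named in the submitters' processing notes, without versions, and coverage filters and strand merging are not given in the sources used here. Read counts are not listed, so depth and counting error are unknown. Every library of an age listed the same positions, and strands of a CpG were listed apart. The 21 value columns of the series-wide tables have no names and were not used. Libraries of the same age differed on average by at least 3.39 points a CpG, so none was a copy of another.

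Gene means are unweighted means over the listed CpGs of a gene with 1000 bp either side. All CpGs, and all gene regions with at least 3 CpGs, were fitted in limma 3.58.1 (R 4.3.3) after the transformation log2((percent + 1) / (100 - percent + 1)) where the mean was 5% to 95%, with Benjamini-Hochberg adjustment over all features. Single values were tested with two-sided exact permutation tests (numpy 2.4.6). Groups came from the labels. The name of 1 gene in the microglia marker list is not reported here; its CpGs are part of the list mean. The methods were tested on simulated data. The members, gene and marker lists and named features were chosen with earlier results of these data known. Named were, for each member and comparison, the 2 CpGs of largest difference; for each member the 2 CpGs of widest range; for each comparison the 2 pathway genes of smallest p in each direction, from which the text draws; and the 3 regions of most like pattern. Results were recomputed on the percent scale, with other offsets and flanks, with no mean filter, with strands averaged, on CpGs of both ages, with replicate number as a block and with libraries left out in turn.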

Additional observations from a re-analysis of the deposited data

Results flagged for a closer look

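Gene means and stretch means were examined for single libraries far from the rest of their group in 64 groups of 4 or 8 libraries. Of these, 2 (3.12%) had one, where chance marks about 1 in 20 of separate groups. A gene mean contains its stretch means, so the groups examined are not separate. C4b in HEM replicate 8 at 13 months was at 72.6%, with the other HEM libraries of that age from 78.4% to 80.8%. The same library had the lowest mean over all CpGs of its age, 29.3%. In C3, the 4 CpGs from 57205667 to 57205731 averaged 93.8% in WT replicate 4 at 3 months, with the other WT libraries from 83.6% to 85.1%. Its mean over all CpGs was the highest of its age, 32.2%.

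For the change of the HEM minus WT difference with age, 3 of the 63 member CpGs had an unadjusted exact permutation p under 0.05, about the number such a threshold gives by chance, and 2 of them were named by rule. Limma called neither, and 6.28% of all CpGs had an unadjusted limma p under 0.05. At 57205707 in C3 the change was 23.3 points (exact permutation p = 0.00978; limma adjusted p = 0.771). At 136890292 in C1qc the change was -25.0 points (exact permutation p = 0.0408; limma adjusted p = 0.794), with 52.7% ± 14.2 in HEM and 67.4% ± 11.4 in WT at 13 months (SD, n = 8 and 4), and 68.5% ± 11.5 in HEM and 58.1% ± 11.5 in WT at 3 months (SD, n = 4 each).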

How the results depend on the processing

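No member region or CpG was called by limma under any alternative. Apart from leaving libraries out, given below, no alternative made a result cross its threshold. The percent scale, an offset of 5, no mean filter and strands averaged turned no direction in 26 results each. Directions turned, all of differences that were not called, as follows. With a flank of 5 kb C1qb at 3 months gave -1.27 points and C3 between ages in HEM -1.07 points. Without a flank C4b between ages in WT gave 0.057 points. With CpGs listed at both ages C1qc at 3 months gave -0.28 points. The cause was not tested.

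Replicate numbers are shared between groups, but same-numbered libraries did not deviate together in every pair (correlations 0.103, 0.224 and 0.048 at 13 months, each library correlating best with its own number there; 0.0505 and -0.111 at 3 months; 0.0274, -0.152 and -0.0155 between ages in HEM), so the numbers were not taken as pairs. At 13 months the numbers may still mark pairs, which the tests of that age without a block do not take into account. With a replicate block the HEM minus WT difference at 13 months was -13.1 points for C1qc (limma adjusted p = 0.467). The block gave -0.996 points for C1qa, -3.29 points for C1qb, -6.17 points for C1qc and 0.0135 points for C4b at 3 months, and 1.63 points for C1qc between ages in HEM, each turned in direction. The ages in WT were not fitted with a block.

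Leaving out each library in turn, HEM minus WT at 13 months ran from -6.19 to -0.53 points for C1qa, -14.3 to -5.37 for C1qc, -2.88 to -0.87 for C3 and -0.10 to 1.39 for C4b. At 3 months it ran from -0.11 to 4.22 for C1qa, -5.34 to 3.71 for C1qb, -2.87 to 3.12 for C1qc, 0.52 to 3.59 for C3 and -2.27 to -1.29 for C4b. Between ages it ran in HEM from -8.24 to -5.39 for C1qa, -14.3 to -8.16 for C1qc, 0.19 to 2.21 for C3 and 0.50 to 1.83 for C4b, and in WT from -4.45 to 1.95 for C1qa, -6.21 to 2.70 for C1qc, 3.59 to 6.67 for C3 and -1.07 to 0.0857 for C4b. The change with age ran from -8.97 to -2.56 for C1qa, -14.0 to -5.08 for C1qc, -5.27 to -2.20 for C3 and 0.85 to 2.45 for C4b.

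An exact permutation p, unadjusted, fell under 0.05 in a few of these. The C1qa difference between ages in HEM had an exact p of 0.0485 without HEM replicate 3 or 10 of 13 months. Without HEM replicate 8 of 13 months C4b gave 1.83 points between ages in HEM (exact p = 0.0152) and a change with age of 2.45 points (exact p = 0.0309). The lowest limma adjusted p of these was 0.1995. Depth is unknown, so its effect on the spread of single CpGs cannot be given.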
